A study of Homo sapiens with 16 samples.

Results

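The parental human melanoma line UACC62P was measured after 24 h in 10 uM CCG-222740 and without the compound, and every gene was compared between both states. The comparison rests on 4 of the 16 libraries of the series, 2 at 24 h and 2 untreated ones called 0 h here, and its members are all 20280 genes that passed a filter on low counts. CCG-222740 is a small molecule made to block transcription driven by MRTF and SRF. The series holds UACC62P and UACC62R, a derivative selected over 2 months for growth in 2 uM of the BRAF inhibitor vemurafenib, each untreated and after 2, 6 and 24 h in 10 uM of the compound. Treated cells had been seeded in 6-cm plates, per the labels. The 0 h labels name no vehicle and describe the cells in other words than the treated labels, so a difference of handling cannot be told apart from the compound at any gene. Polyadenylated RNA was read as single 50 bp reads, and nothing says that the numbered replicates were separate cultures. The p-values therefore measure the spread between these libraries, which may be technical.

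The 4 libraries held 28159604 to 30546647 reads in genes, beside 25932053 to 33342482 over all 16. Reads that did not align made up 13.7% and 11.9% of the libraries at 24 h, against 17.8% and 14.5% at 0 h, and the groups did not overlap. The part of this gap in any gene's difference was not tested. SOX10, the transcription factor of the neural crest and melanocyte lineage, had 856 and 803 CPM at 24 h, against 919 and 787 CPM at 0 h. MLANA, a melanosome antigen, had 89.03 and 99.1 CPM at 24 h, against 128 and 129.9 CPM at 0 h, while PMEL, another melanosome protein, stayed between 1.25 and 3.38 CPM in the UACC62P libraries. CPM is a gene's count scaled to the library's total, adjusted by TMM. One library labelled UACC62P at 2 h, replicate 1, went against its label, with 18.2 CPM of SOX10, against 20.3 to 30.2 CPM in UACC62R and 738 to 915 CPM in the other UACC62P libraries. These ranges, like that of PMEL and the sums over markers of other cell types below, were scaled over all 16 libraries. All other CPM values were scaled over the 15 without it. It enters no value below unless said so.

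MRTF-A and MRTF-B are coactivators that actin monomers hold out of the nucleus, and when actin polymerises they enter it and, with SRF, switch on genes of the actin cytoskeleton. Cells that load the endoplasmic reticulum (ER) with secreted and membrane proteins depend on a translocation channel, a set of sugar-adding enzymes and coated vesicles, and they adjust these through the unfolded protein response. ATF4 is the transcription factor of the integrated stress response and drives amino acid import and synthesis, while MTF1 senses zinc and switches on metallothioneins, small proteins that bind metal ions.

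After 24 h, 445 genes were higher and 335 lower than at 0 h at an adjusted p under 0.05, which is 2.19% and 1.65% of the genes tested and 3.85% together. With 2 libraries a group, the fit drew its estimate of spread from 15 libraries in 8 groups, so that each call used 7 residual degrees of freedom. Of the higher genes 423 were protein coding, and of the lower ones 319. Most changes were small, with a median log2 fold change of 0.55 among the higher genes and -0.50 among the lower ones. Only 62 genes were at least 2-fold higher and 42 at least 2-fold lower, and 9 and 8 passed 4-fold. The 2 groups did not overlap at any of the 780 genes, against 23.5% of all genes tested with both 24 h libraries above and 23.9% with both below. With the replicate number as a block, 1224 genes were higher and 1224 lower, 6.04% each, and these included all 780. Counts of list members below are to be read beside these shares. Fewer genes were called whichever of the 4 libraries was left out. Each such fit held 1 library in a group. It therefore cannot tell a call that rests on the library left out from a weaker test. Calls lost in such fits, given below, carry this limit. When the library at odds with its label was put back into its group, 20 genes were higher and 9 lower.

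**Figure D1:**
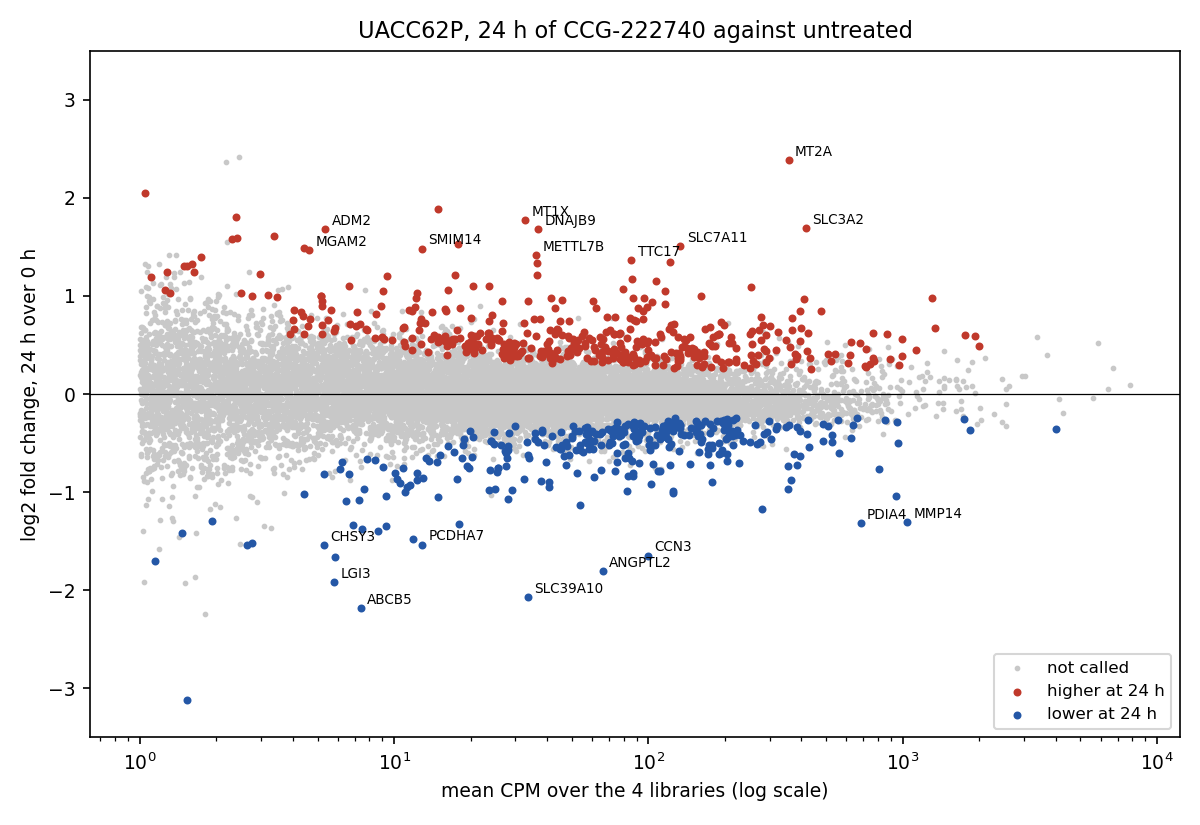
Log2 fold change at 24 h against 0 h in UACC62P (vertical axis) by mean CPM over the 4 libraries (horizontal log axis), 1 point for each gene at 1 CPM or more; red (higher) and blue (lower) points passed an adjusted p of 0.05. Most coloured points lie within 2-fold, and MT2A and SLC39A10 stand at the edges.

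Genes of the machinery that threads proteins into the ER and attaches sugars to them were often higher. Of 33 genes of ER translocation and N-glycosylation that were tested, 20 rose and 1 fell, against 2.19% and 1.65% of all genes. None of the 33 lay under 1 CPM, and of the 13031 genes with a symbol at 1 CPM or more 3.3% rose and 2.46% fell. The list's median log2 fold change was 0.42, beside -0.01 over the 13681 genes at 1 CPM or more. The lists were chosen with earlier results of these data known, so such an excess is not an independent test. SSR1 (ENSG00000124783), a subunit of the translocon-associated protein complex that sits beside the channel, had 552 and 533 CPM at 24 h, against 278 and 278 CPM at 0 h. Its log2 fold change was 0.97 ± 0.07 (SE) with an adjusted p of 4.64e-06, and it passed in every fit that left out 1 library. SSR3, another subunit of the same complex, had 616 and 611 CPM at 24 h, against 334 and 347 CPM at 0 h, a log2 fold change of 0.85 ± 0.12 (adjusted p = 0.000941). In both subunits each library at 24 h was above each at 0 h by more than the gap between replicates.

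ALG2, a mannosyltransferase that builds the sugar carried on a lipid before transfer to protein, had 75.1 and 84.4 CPM at 24 h, against 40.2 and 42.4 CPM at 0 h, a log2 fold change of 0.95 ± 0.11 (adjusted p = 0.000262). Subunits of the oligosaccharyltransferase, which hands that sugar to the growing chain, rose by log2 0.78 for STT3A, 0.67 for RPN1, 0.60 for STT3B, 0.36 for RPN2 and 0.34 for DDOST. RPN1 had 1688 and 1610 CPM at 24 h, against 1041 and 1031 CPM at 0 h. SEC61A1, the pore subunit of the channel, had 2104 and 2150 CPM at 24 h, against 1416 and 1385 CPM at 0 h, a log2 fold change of 0.60 ± 0.07 (adjusted p = 0.000161), and SEC61B and SEC61G gave 0.52 and 0.61. SEC63, which couples the channel to the chaperone BiP, had 256 and 225 CPM at 24 h, against 149 and 139.6 CPM at 0 h (log2 fold change 0.73 ± 0.08, adjusted p = 0.000107). In each of these genes both 24 h libraries lay above both 0 h libraries, and the groups overlapped at none of the 780 called genes.

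One member of the list moved the other way. MOGS, the glucosidase that cuts the first glucose from the newly attached sugar, had 75.98 and 84.1 CPM at 24 h, against 146 and 131 CPM at 0 h, and it fell with a log2 fold change of -0.79 ± 0.08 (adjusted p = 0.000136). GANAB, the glucosidase that acts next, had 846 and 803 CPM at 24 h, against 906 and 782 CPM at 0 h, and was not called (adjusted p = 0.893). The 20 higher members became 12 to 16 when single libraries were left out, and 23 with the replicate block. The calls on RPN2 (0.123 without 0 h replicate 2 and 0.129 without 24 h replicate 1), DDOST (0.0582 to 0.232 when each of the 4 libraries was left out in turn) and SEC61B (0.0584 without 0 h replicate 1) were lost at these adjusted p values. In 12 of the 33 members the level at 24 h also differed from that at 6 h, beside 0.735% of all genes.

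**Figure D2:**
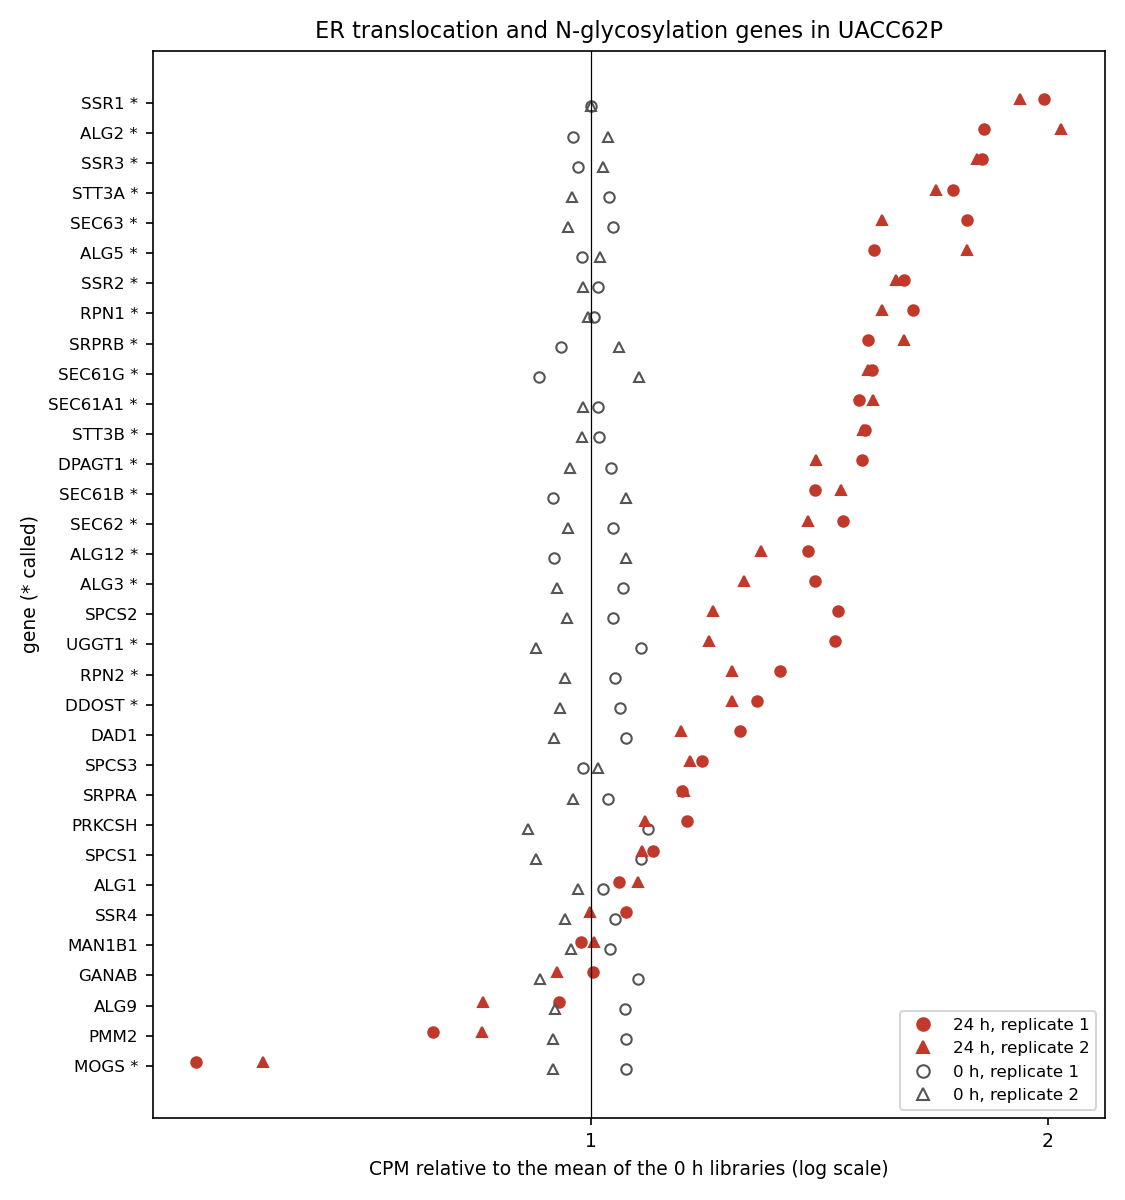
Expression of 33 genes of ER translocation and N-glycosylation (rows) in each library of UACC62P relative to the mean of the 0 h libraries, on a log axis, with 24 h libraries in red and 0 h libraries in grey and an asterisk at called genes. SSR1, ALG2 and SSR3 lie farthest to the right at 24 h and MOGS farthest to the left.

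Genes of the coated vesicles that leave and return to the ER rose in smaller number. Of 25 COPII and COPI genes 9 rose and 1 fell, with 3 to 5 higher ones when single libraries were left out and 15 with the replicate block. SEC24D, a COPII coat subunit that selects cargo, had 151 and 154 CPM at 24 h, against 94.7 and 92.1 CPM at 0 h, a log2 fold change of 0.71 ± 0.09 (adjusted p = 0.000578). SEC23B, the partner in the same coat layer, had 149 and 146 CPM at 24 h, against 96.9 and 89.9 CPM at 0 h, a log2 fold change of 0.66 ± 0.09 (adjusted p = 0.00065). The KDEL receptors, which return escaped chaperones to the ER, rose by log2 0.58 in KDELR3, 0.41 in KDELR2 and 0.37 in KDELR1. LMAN1, a lectin that carries glycoproteins to the Golgi, had 173 and 178 CPM at 24 h, against 258 and 247 CPM at 0 h, and fell with a log2 fold change of -0.52 ± 0.12 (adjusted p = 0.0263). The calls on LMAN1 and the KDEL receptors were lost in some or all of the 4 fits without 1 library, which hold 1 library in a group. Over these fits the log2 fold change ran from -0.55 to -0.49 in LMAN1 and from 0.48 to 0.68 in KDELR3. In the same fits it ran from 0.30 to 0.44 in KDELR1 and from 0.40 to 0.43 in KDELR2.

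The 29 genes still called when the library at odds with its label was kept included further genes of the ER membrane, named here after their values were seen. TRAM1, a membrane protein beside the translocation channel, had 210.2 and 219 CPM at 24 h, against 109.6 and 105 CPM at 0 h, a log2 fold change of 1.00 ± 0.08 (adjusted p = 9.51e-06). MIA3, also called TANGO1, which loads bulky cargo such as collagens at ER exit sites, had 165 and 149 CPM at 24 h, against 78.3 and 73.03 CPM at 0 h, a log2 fold change of 1.05 ± 0.09 (adjusted p = 2.72e-05). HM13, the signal peptide peptidase, had 534 and 479 CPM at 24 h, against 290.00 and 272 CPM at 0 h (log2 fold change 0.85 ± 0.08, adjusted p = 7.31e-05). SLC33A1, the acetyl-CoA carrier of the ER membrane, was higher by log2 0.98, and TMEM131, a membrane protein of collagen secretion, by 1.09. Among the 9 lower ones were FKBP10, a collagen prolyl isomerase of the ER, at 459.98 and 434 CPM at 24 h, against 706 and 649 CPM at 0 h, and JAM3, a junctional adhesion molecule, at 81.2 and 85.03 CPM at 24 h, against 174 and 161 CPM at 0 h. The log2 fold changes were -0.60 ± 0.08 for FKBP10 (adjusted p = 0.000484) and -1.01 ± 0.08 for JAM3 (adjusted p = 9.51e-06). For each of these 7 genes, as for all 780 called genes, all 24 h values lay on one side of all 0 h values.

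Chaperones of the ER lumen moved in both directions. Of 21 genes of the unfolded protein response 5 rose and 4 fell, with a median log2 fold change of 0.16. DNAJB9, a co-chaperone that brings misfolded clients to BiP, had 50.6 and 61.6 CPM at 24 h, against 18.2 and 16.7 CPM at 0 h, the strongest rise of the list at 1.69 ± 0.23 on the log2 scale (adjusted p = 0.000853). EIF2AK3, the stress sensor kinase PERK, had 45.7 and 48.4 CPM at 24 h, against 28.4 and 26.95 CPM at 0 h (log2 fold change 0.76 ± 0.17, adjusted p = 0.0261). CANX, the membrane-bound lectin chaperone calnexin, rose to 2387 and 2219 CPM at 24 h, against 1560 and 1504 CPM at 0 h, a log2 fold change of 0.59 ± 0.07 (adjusted p = 0.000236). CALR, its soluble relative calreticulin, went the other way, with 1622 and 1582 CPM at 24 h, against 2085 and 2054 CPM at 0 h, a log2 fold change of -0.37 ± 0.08 (adjusted p = 0.0171, but 0.0867 to 0.116 when each of the 4 libraries was left out in turn).

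PDIA4, a disulfide isomerase of the ER lumen, showed the largest fall of the list. It had 371 and 412 CPM at 24 h, against 1018 and 931 CPM at 0 h, a log2 fold change of -1.32 ± 0.12 (adjusted p = 3.06e-05). DNAJC3, a co-chaperone that also restrains PERK, had 35.7 and 40.6 CPM at 24 h, against 68.6 and 64.96 CPM at 0 h, a log2 fold change of -0.81 ± 0.12 (adjusted p = 0.00139). Both were lower in each library at 24 h than in each at 0 h, and all 780 called genes likewise had groups that did not overlap. HSPA5, which encodes BiP itself, had 1245 and 1290 CPM at 24 h, against 1138 and 1089 CPM at 0 h, and HSP90B1, the chaperone GRP94, had 2737 and 2451 CPM at 24 h, against 2340 and 2327 CPM at 0 h. Neither passed the test, with adjusted p values of 0.192 and 0.341, and their log2 fold changes were 0.19 ± 0.07 and 0.15 ± 0.08. DDIT3, the stress factor CHOP, was likewise not called (0.30 ± 0.12, adjusted p = 0.211). EIF2AK3 lost its call in all 4 fits without 1 library, with adjusted p values of 0.103 to 0.173, and the list then gave 2 to 3 higher and 2 to 3 lower members.

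In the 250 bases before the transcription start, the ER stress response element, spelled CCAAT and CCACG with 9 bases of any kind between and searched on both strands, occurred in 6 of the 20 list members with a window (30.0%). It occurred in 0.0806% of all 27305 gene windows. Of the members that hold it, XBP1 and CANX were called higher and CALR lower (for XBP1 the adjusted p was 0.04, but 0.0958 to 0.241 when each of the 4 libraries was left out in turn), while HSPA5, HSP90B1 and CRELD2 were not. A match describes these letters and is not a measured binding site. DNAJB9 and PDIA4, with the largest rise and fall of the list, held no match in this window.

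The amino acid and ATF4 response rose in one direction. Of 28 genes 11 rose and 0 fell, and the median log2 fold change was 0.46; with the replicate block 21 were higher and 1 lower. SLC3A2 (ENSG00000168003), the heavy chain shared by several amino acid exchangers, had 629 and 646 CPM at 24 h, against 203 and 192 CPM at 0 h, a log2 fold change of 1.69 ± 0.15 (adjusted p = 3.44e-05). SLC7A11, which pairs with it to import cystine in exchange for glutamate, had 192 and 204 CPM at 24 h, against 75.3 and 63.7 CPM at 0 h, a log2 fold change of 1.51 ± 0.12 (adjusted p = 1.03e-05). Both passed whichever library was left out, and the replicates of each group were close together beside the gap between the groups.

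ASNS, asparagine synthetase, had 159.6 and 135 CPM at 24 h, against 74.6 and 57.9 CPM at 0 h, a log2 fold change of 1.15 ± 0.21 (adjusted p = 0.0074). PCK2, the mitochondrial PEP carboxykinase, had 32.01 and 23.9 CPM at 24 h, against 15.2 and 10.7 CPM at 0 h, a log2 fold change of 1.11 ± 0.21 (adjusted p = 0.0104). CHAC1, an enzyme that degrades glutathione, had 36.2 and 28.2 CPM at 24 h, against 21.8 and 8.18 CPM at 0 h, and its untreated replicates lay farther apart than those of the other members. Its log2 fold change was 1.10 ± 0.29 (adjusted p = 0.0492). ATF4 itself had 436 and 388 CPM at 24 h, against 321 and 240.3 CPM at 0 h, a log2 fold change of 0.56 ± 0.11 (adjusted p = 0.0148). Other members below the threshold were TRIB3, a pseudokinase induced by ATF4 and CHOP, at 0.72 ± 0.24 (adjusted p = 0.117, or 0.000902 with the block), and PHGDH, the first enzyme of serine synthesis, at 0.57 ± 0.15 (0.0555, or 0.000154 with the block). In all these genes 0 h replicate 2 was the lowest library. Adjusted p values that missed the threshold were 0.11 without 0 h replicate 2 and 0.1 without 24 h replicate 1 for ASNS, and 0.132 without 0 h replicate 2 and 0.149 without 24 h replicate 1 for PCK2. For CHAC1 the values were 0.151 without 0 h replicate 2, 0.305 without 24 h replicate 1 and 0.0995 without 24 h replicate 2, and for ATF4 0.138 without 0 h replicate 2 and 0.149 without 24 h replicate 1. Across the 4 fits the list had 4 to 14 higher members.

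The RefSeq promoter windows (GRCh38.p14) of the called members ASNS and CHAC1 are shown because they hold a CEBP-ATF response element core, TGATGNAA on either strand, printed in capitals. CHAC1 lies at chr15:40953221-40953470 on the plus strand and ASNS at chr7:97872409-97872658 on the minus strand, each 250 bases 5′ to 3′ up to the base before the start.
CHAC1: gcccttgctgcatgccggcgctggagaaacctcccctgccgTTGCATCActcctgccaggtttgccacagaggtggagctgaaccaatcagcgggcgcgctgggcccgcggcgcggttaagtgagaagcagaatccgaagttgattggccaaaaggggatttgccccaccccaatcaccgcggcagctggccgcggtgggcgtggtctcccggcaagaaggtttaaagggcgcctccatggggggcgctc
ASNS: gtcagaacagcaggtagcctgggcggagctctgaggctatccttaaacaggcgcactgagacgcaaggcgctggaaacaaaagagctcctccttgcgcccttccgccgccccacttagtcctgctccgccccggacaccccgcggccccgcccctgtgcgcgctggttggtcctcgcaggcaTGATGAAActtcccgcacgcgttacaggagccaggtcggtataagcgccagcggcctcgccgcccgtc
The same letters were present in 3 of the 23 list members with a window (13.0%), the third being ATF3, and in 3.19% of all gene windows. They lay in 1.62% of the windows of tested genes, 1.67% of those of genes higher at 24 h and 1.51% of those lower. SLC3A2, the member with the largest rise, held none in this window.

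The largest rise of any gene named here was in the metallothioneins. MT2A (ENSG00000125148) had 586 and 611 CPM at 24 h, against 124 and 105 CPM at 0 h, a log2 fold change of 2.38 ± 0.10 (adjusted p = 3.75e-08). MT1X had 52.9 and 48.8 CPM at 24 h, against 16.1 and 13.6 CPM at 0 h, a log2 fold change of 1.77 ± 0.19 (adjusted p = 0.000122). MT1G, at a much lower level, had 4.23 and 4.1 CPM at 24 h, against 2.11 and 1.44 CPM at 0 h, a log2 fold change of 1.22 ± 0.28 (adjusted p = 0.0252), and it lost the call in all 4 fits without 1 library, at 0.0504 to 0.207. These were the 3 of 11 metallothionein genes that passed the count filter, and as near copies of each other they can share short reads. At the single library of 2 h MT2A stood at 380.4 CPM, at 6 h at 895 and 1098 CPM, and it was lower at 24 h than at 6 h (log2 fold change -0.74 ± 0.10, adjusted p = 0.0046). That call was lost with adjusted p values of 0.106 without 24 h replicate 1 and 0.0501 without 24 h replicate 2.

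Over the same times MT1X had 16.1 and 13.6 CPM at 0 h, 127 CPM at 2 h, 231 and 355 CPM at 6 h and 52.9 and 48.8 CPM at 24 h. At 24 h it was lower than at 6 h (log2 fold change -2.53 ± 0.18, adjusted p = 2.44e-05), and the difference passed whichever library was left out. SLC30A1, the exporter that carries zinc out of the cell and a textbook MTF1 target, had 104 and 136 CPM at 24 h, against 57.1 and 49.3 CPM at 0 h, a log2 fold change of 1.17 ± 0.17 (adjusted p = 0.00121). It too had been higher at 6 h, at 219.9 and 297 CPM, and the log2 fold change at 24 h against 6 h was -1.11 ± 0.16 (adjusted p = 0.0071, and 0.0746 without 6 h replicate 2 and 0.145 without 24 h replicate 1). SLC39A10, a zinc importer, moved the other way and stayed there: it had 13.9 and 12.02 CPM at 24 h, against 56.7 and 51.8 CPM at 0 h, a log2 fold change of -2.07 ± 0.16 (adjusted p = 1.03e-05), and 15.9 and 15.4 CPM at 6 h. MTF1 itself had 48.5 and 46.1 CPM at 24 h, against 47.7 and 46.98 CPM at 0 h and a log2 fold change of -0.00 ± 0.09 (adjusted p = 1). Over the 22 zinc transporters and MTF1, 2 rose and 1 fell, or 6 and 2 with the block.

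The core of the metal response element, which MTF1 binds, was taken as TGCGCNC or TGCACNC on either strand. The windows of the called genes MT2A, MT1X and SLC30A1 are printed with the core in capitals. They are RefSeq sequences of GRCh38.p14, 5′ to 3′ along the gene: MT2A at chr16:56608334-56608583 and MT1X at chr16:56682220-56682469, both on the plus strand, and SLC30A1 at chr1:211579162-211579411 on the minus strand.
MT2A: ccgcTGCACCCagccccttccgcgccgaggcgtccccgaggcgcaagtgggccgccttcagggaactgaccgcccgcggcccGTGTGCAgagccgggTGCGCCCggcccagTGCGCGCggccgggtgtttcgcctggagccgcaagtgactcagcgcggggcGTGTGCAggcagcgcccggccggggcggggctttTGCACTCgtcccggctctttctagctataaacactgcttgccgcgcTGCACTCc
MT1X: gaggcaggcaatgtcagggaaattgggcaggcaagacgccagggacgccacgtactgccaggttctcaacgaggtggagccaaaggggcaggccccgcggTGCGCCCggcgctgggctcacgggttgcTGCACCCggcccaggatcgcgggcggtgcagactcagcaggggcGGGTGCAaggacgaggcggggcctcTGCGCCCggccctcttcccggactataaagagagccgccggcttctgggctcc
SLC30A1: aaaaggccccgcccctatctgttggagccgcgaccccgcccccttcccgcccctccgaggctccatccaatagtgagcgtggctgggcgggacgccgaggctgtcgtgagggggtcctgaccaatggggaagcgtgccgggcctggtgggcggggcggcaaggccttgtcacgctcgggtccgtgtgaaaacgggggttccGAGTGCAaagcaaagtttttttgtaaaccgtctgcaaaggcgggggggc
MT2A held 7 matches, MT1X 4 and SLC30A1 1. In the list of zinc transporters and MTF1, 7 of the 19 members with a window held the core (36.8%). Besides SLC30A1 these were SLC30A2, SLC30A3, SLC30A4, SLC30A6, SLC39A3 and SLC39A6, none of which was called. The core is short and was found in 24.7% of all gene windows and in 32.3% of those of tested genes, beside 33.3% of the windows of genes higher at 24 h and 34.3% of those lower.

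**Figure D3:**
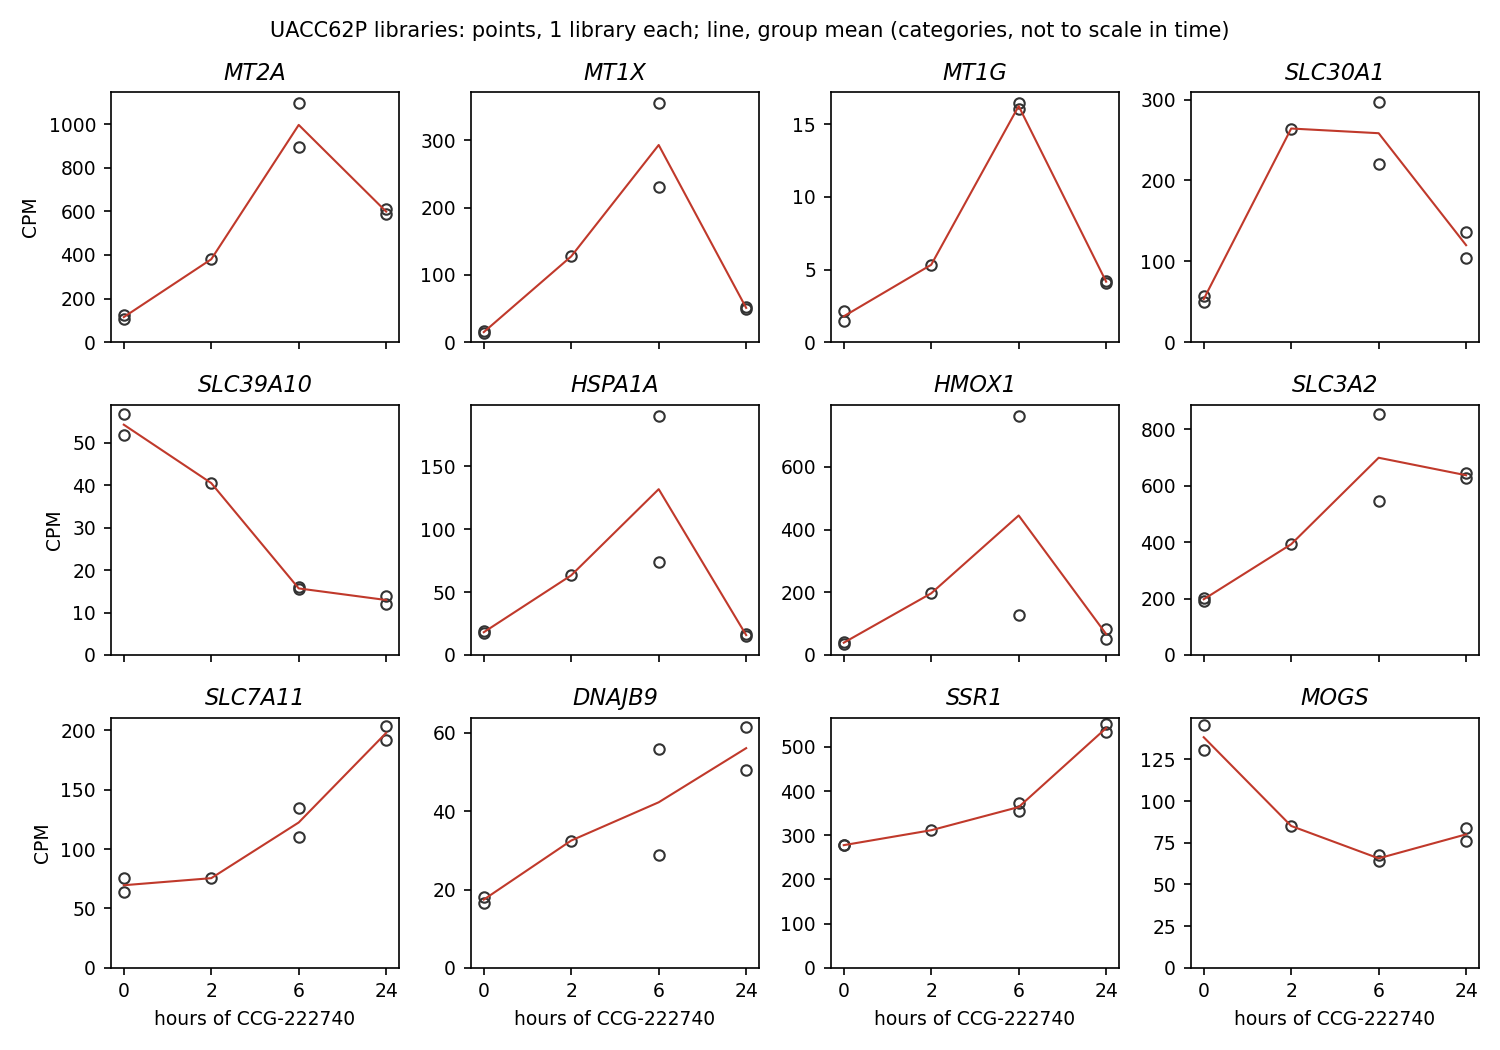
CPM (linear axis from 0) of 12 genes by hours in the compound, which are spaced as categories, with 1 point for each UACC62P library, 1 library at 2 h, and lines through the group means. MT2A, MT1X, MT1G, HSPA1A and HMOX1 are highest at 6 h, SLC30A1 is high at 2 and 6 h, SSR1 is highest at 24 h, and MOGS and SLC39A10 lie below their 0 h levels at every later time.

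Of 21 heat shock genes 8 were lower at 24 h than at 6 h, beside 0.39% of all genes, while against 0 h 1 rose and 0 fell, or 2 and 6 with the block. HSPA1A, the inducible cytosolic HSP70, had 17.2 and 18.9 CPM at 0 h, 73.5 and 190.00 CPM at 6 h and 15.3 and 16.3 CPM at 24 h. The 24 h and 0 h libraries differed by -0.19 ± 0.35 on the log2 scale (adjusted p = 0.841), while 24 h was below 6 h by -3.06 ± 0.35 (adjusted p = 0.00275, and 0.0649 without 24 h replicate 1). HSPA1A and HSPA1B are near-identical copies, and reads may be split between them. HMOX1, haem oxygenase, had 35.3 and 42.9 CPM at 0 h, 128 and 761 CPM at 6 h and 50.2 and 83.2 CPM at 24 h, and its 6 h libraries stood far apart. At 24 h it did not pass against 0 h (0.77 ± 0.52, adjusted p = 0.483).

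The heat shock gene that rose, HSPB8, a small heat shock protein of selective autophagy, had 95.7 and 102 CPM at 24 h, against 79.9 and 72.2 CPM at 0 h (log2 fold change 0.38 ± 0.08, adjusted p = 0.0226). Its adjusted p was 0.196 without 0 h replicate 2, 0.0751 without 24 h replicate 1 and 0.153 without 24 h replicate 2. Of 26 NRF2 targets 4 rose, or 7 with the block, and none fell, beside 2.19% of all genes higher, or 6.04% with the block. Besides SLC7A11 these were EPHX1, a microsomal epoxide hydrolase, with 96.1 and 91.9 CPM at 24 h, against 54.2 and 54.7 CPM at 0 h and a log2 fold change of 0.79 ± 0.08 (adjusted p = 8.97e-05), and the NADPH-producing enzymes ME1 (0.42 ± 0.07, adjusted p = 0.00443) and PGD (0.29 ± 0.07, adjusted p = 0.0411). PGD lost its call whichever library was left out, at 0.0938 to 0.244. NQO1, a standard NRF2 reporter gene, had 928 and 1112 CPM at 24 h, against 721 and 874 CPM at 0 h, with a log2 fold change of 0.35 ± 0.15 that did not pass (adjusted p = 0.216). Of 15 haem and iron genes edgeR called TFRC, the transferrin receptor, with 416 and 461 CPM at 24 h, against 612 and 619.6 CPM at 0 h and a fall of -0.49 ± 0.07 (adjusted p = 0.00163), and no other. DESeq2 called 1 higher and 1 lower, the block 2 and 1, and the fit with no filter 4 and 1.

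Enzymes that build glycosaminoglycans, the long sugar chains of proteoglycans, moved in both directions. Of 26 tested, 2 rose and 5 fell. CSGALNACT2, which starts and lengthens chondroitin chains, had 51.7 and 49.9 CPM at 24 h, against 22.5 and 21.4 CPM at 0 h, a log2 fold change of 1.21 ± 0.12 (adjusted p = 7.79e-05). The chondroitin polymerising factor CHPF2 had 78.02 and 90.1 CPM at 24 h, against 169 and 164 CPM at 0 h, a log2 fold change of -0.99 ± 0.09 (adjusted p = 3.36e-05). CHPF gave -0.97 ± 0.15 (adjusted p = 0.00178). CHST14, the sulfotransferase of dermatan chains, had 19.4 and 19.8 CPM at 24 h, against 43.1 and 34.2 CPM at 0 h, a log2 fold change of -0.98 ± 0.11 (adjusted p = 0.000255). CHSY3, a chondroitin synthase at a low level, had 2.83 and 2.62 CPM at 24 h, against 7.69 and 8.14 CPM at 0 h (-1.54 ± 0.34, adjusted p = 0.0205) and missed the threshold in every fit without 1 library, at 0.0758 to 0.146. The lower members numbered 3 in each of those fits.

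Lysosomal genes were divided evenly, with 4 higher and 4 lower of 33, beside 2.19% and 1.65% of all genes. With the block 9 were higher and 4 lower, beside 6.04% each way. The lower ones included the hydrolases NAGLU and SGSH, which degrade heparan sulfate, and SMPD1, the acid sphingomyelinase. NAGLU had 27.9 and 27.4 CPM at 24 h, against 60.98 and 45.97 CPM at 0 h, a log2 fold change of -0.95 ± 0.15 (adjusted p = 0.00215). SMPD1 had 45.7 and 42.1 CPM at 24 h, against 88.6 and 68.96 CPM at 0 h, a log2 fold change of -0.84 ± 0.12 (adjusted p = 0.000941). The higher ones included MCOLN1, the lysosomal calcium channel mucolipin 1, at 70.5 and 65.6 CPM at 24 h, against 43.5 and 44.2 CPM at 0 h (0.63 ± 0.08, adjusted p = 0.000292), and NPC1, the cholesterol exporter, at 94.6 and 93.97 CPM at 24 h, against 64.1 and 58.1 CPM at 0 h (0.63 ± 0.09, adjusted p = 0.000991). NAGLU, SGSH and SMPD1 passed whichever library was left out.

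Of the genes that MRTF and SRF are known to drive, more were called lower than higher in UACC62P, though most were not called. Of 25 tested, 0 rose and 2 fell, beside 2.19% and 1.65% of all genes, with a median log2 fold change of -0.06. With the replicate block 2 were higher and 6 lower, DESeq2 called 0 higher and 5 lower, and at an unadjusted p under 0.05 there were 3 and 6. Over all genes the block called 6.04% each way and DESeq2 3.13% higher and 3.23% lower. The shares with an unadjusted p under 0.05 were 9.34% and 8.76%. Of the 25 members, 11 had a log2 fold change above 0 and 14 under 0. ACTB, cytoplasmic beta-actin, had 3607 and 3441 CPM at 24 h, against 4678 and 4335 CPM at 0 h, a log2 fold change of -0.35 ± 0.07 (adjusted p = 0.0103). TAGLN2, transgelin 2, had 149.7 and 143 CPM at 24 h, against 216 and 203 CPM at 0 h, a log2 fold change of -0.51 ± 0.08 (adjusted p = 0.00246). ACTG1, gamma-actin, had 1791 and 1738 CPM at 24 h, against 2259 and 2086 CPM at 0 h, and missed the threshold (-0.30 ± 0.10, adjusted p = 0.129, or 0.00281 with the block). The call on ACTB was lost at 0.0875 without 0 h replicate 1, 0.0693 without 24 h replicate 1 and 0.0995 without 24 h replicate 2.

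Other classical members showed no call. VCL, the focal adhesion linker vinculin, had 151 and 149 CPM at 24 h, against 165 and 148 CPM at 0 h (-0.06 ± 0.09, adjusted p = 0.808). ACTA2, smooth muscle actin, had 9.101 and 9.72 CPM at 24 h, against 10.2 and 8.58 CPM at 0 h (0.00 ± 0.12, adjusted p = 1). TAGLN was near 1 CPM in all 4 libraries. The regulators stayed close to their untreated levels: MRTFA had 40.4 and 40.5 CPM at 24 h, against 45.2 and 39.96 CPM at 0 h, MRTFB had 25.3 and 20.7 CPM at 24 h, against 22.6 and 20.2 CPM at 0 h. SRF, itself an SRF target, had 68.6 and 70.6 CPM at 24 h, against 72.99 and 70.1 CPM at 0 h. Their adjusted p values were 0.745, 0.805 and 0.881. PIR, which encodes pirin, a protein known to bind this class of compound, had 73.2 and 81.8 CPM at 24 h, against 92.2 and 91.3 CPM at 0 h (-0.24 ± 0.10, adjusted p = 0.195). The CArG box, to which SRF binds, occurred in the 250-base windows of 7 of the 23 members that have one (30.4%), beside 1.14% of all windows, and none of these 7 genes (SRF, ACTG1, ACTG2, CNN2, TPM4, FLNA and FHL2) was called. It lay in 0.278% of the windows of genes higher at 24 h and in 3.4% of those of lower genes.

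YAP and TAZ are coactivators that also respond to the cytoskeleton. Of their 23 targets 0 rose and 3 fell, or 0 and 5 with the block. DESeq2 called 0 and 4 of them, and 2 and 7 had an unadjusted p under 0.05. CCN1, a matricellular protein, had 5.35 and 4.98 CPM at 24 h, against 9.45 and 10.8 CPM at 0 h, a log2 fold change of -0.97 ± 0.16 (adjusted p = 0.00322). CCN2, its close relative, had 13.3 and 15.02 CPM at 24 h, against 18.5 and 21.1 CPM at 0 h, and was called with the block (-0.48 ± 0.14, adjusted p = 0.0659, or 0.021 with the block). NT5E, the surface nucleotidase CD73, had 38.2 and 33.3 CPM at 24 h, against 62.2 and 55.8 CPM at 0 h (-0.72 ± 0.12, adjusted p = 0.00349). GADD45B, a stress-induced signalling protein, had 8.52 and 4.06 CPM at 24 h, against 22.8 and 12.3 CPM at 0 h (-1.48 ± 0.29, adjusted p = 0.0123). NT5E reached an adjusted p of 0.06 without 24 h replicate 2. GADD45B reached 0.128 without 0 h replicate 1 and 0.106 without 24 h replicate 2, and its log2 fold change ran from -2.10 to -0.96 over the 4 fits. ANKRD1, a standard YAP reporter, had at most 0.0693 CPM in any of the 4 libraries.

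The 24 h change in UACC62R was more negative than that in UACC62P at 23 of the 25 MRTF/SRF genes and 20 of the 23 YAP/TAZ genes. Over all genes tested, the median of the UACC62P change minus the UACC62R change was 0.02. UACC62R also had more calls over all genes, with 1315 higher and 1669 lower at 24 h than at 0 h. In UACC62P these counts were 445 and 335. The difference between the lines (UACC62P change minus UACC62R change) passed for 7 of the 25 MRTF/SRF genes and 4 of the 23 YAP/TAZ genes, beside 0.562% of all genes. For ACTB it was 0.63 ± 0.10 (adjusted p = 0.0151), from log2 fold changes of -0.35 ± 0.07 in UACC62P and -0.98 ± 0.07 in UACC62R. For ACTG1 the difference was 0.83 ± 0.15 (adjusted p = 0.0212), and for VCL 0.70 ± 0.13 (adjusted p = 0.0299). CCN1 gave 1.19 ± 0.20 (adjusted p = 0.0199) from -0.97 ± 0.16 in UACC62P and -2.16 ± 0.13 in UACC62R, and CCN2 gave 1.20 ± 0.18 (adjusted p = 0.0142) from -0.48 ± 0.14 and -1.69 ± 0.13. Adjusted p values of the difference ranged over the 8 fits without 1 library from 0.0259 to 0.089 for ACTB, 0.016 to 0.115 for CCN1 and 0.016 to 0.0745 for CCN2. All such calls were lost when the library at odds with its label was kept.

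**Figure D4:**
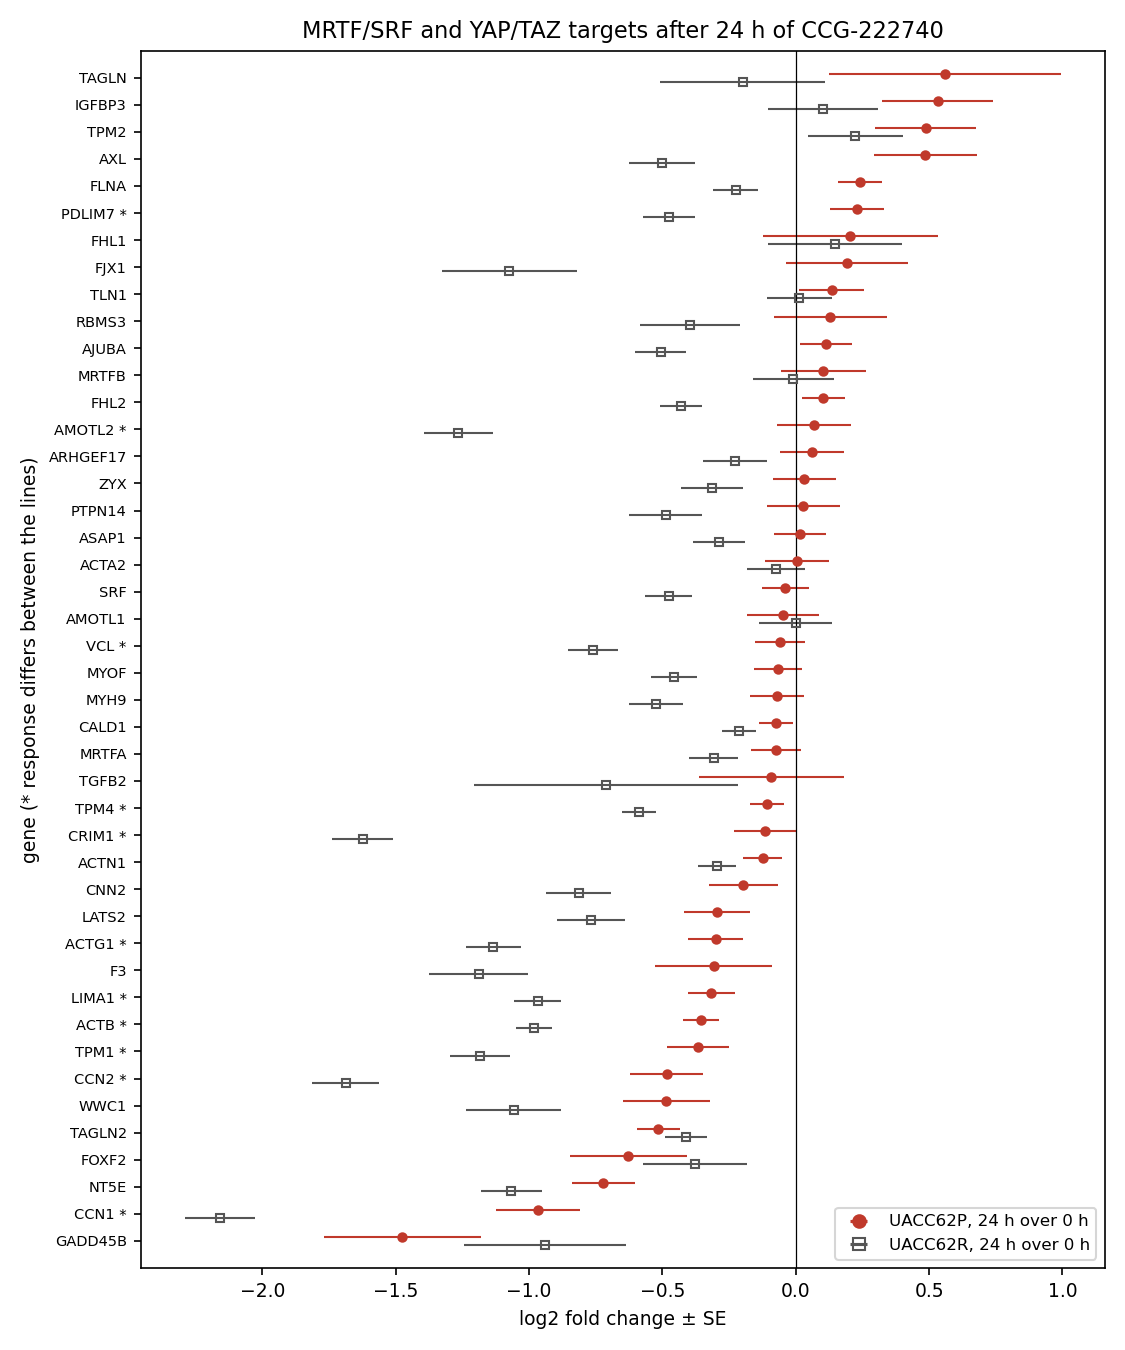
Log2 fold change at 24 h against 0 h (± SE) for MRTF/SRF and YAP/TAZ genes at 1 CPM or more in UACC62P, with UACC62P in red above UACC62R in grey; an asterisk marks genes whose change differed between the lines at an adjusted p under 0.05. Most genes lie farther left in UACC62R than in UACC62P, among them ACTB at -0.35 in UACC62P and -0.98 in UACC62R.

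Calls among adhesion and matrix genes went in both directions. Of 25 focal adhesion and integrin genes 1 rose and 2 fell, beside 2.19% and 1.65% of all genes. With the block 6 rose and 4 fell, beside 6.04% each way. ITGA5, the alpha chain of the fibronectin receptor, had 186 and 157 CPM at 24 h, against 432 and 340.05 CPM at 0 h, a log2 fold change of -1.17 ± 0.14 (adjusted p = 0.000391). ITGA4 had 156 and 166 CPM at 24 h, against 247 and 245 CPM at 0 h (-0.61 ± 0.09, adjusted p = 0.00186), while ITGA7, a laminin receptor chain at a low level, had 5.42 and 4.7 CPM at 24 h, against 1.84 and 1.48 CPM at 0 h, and rose by 1.61 ± 0.26 (adjusted p = 0.00302, and 0.052 without 0 h replicate 2). MMP14, a membrane-anchored collagenase, was abundant in untreated cells and fell to 609.8 and 592 CPM at 24 h, against 1593 and 1377 CPM at 0 h, a log2 fold change of -1.30 ± 0.13 (adjusted p = 8.97e-05).

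Of 29 collagen and matrix genes 4 rose and 1 fell, or 7 and 2 with the block. The laminin chain LAMB1 had 1807 and 1648 CPM at 24 h, against 938 and 813 CPM at 0 h, a log2 fold change of 0.98 ± 0.09 (adjusted p = 4.17e-05). SERPINH1, the collagen chaperone HSP47, had 827 and 773 CPM at 24 h, against 586 and 526 CPM at 0 h (0.53 ± 0.07, adjusted p = 0.0012). LAMA4 gave 0.56 ± 0.13 (adjusted p = 0.0278) and LAMB2 0.53 ± 0.10 (adjusted p = 0.0104). LAMA4 and LAMB2 lost the call without 0 h replicate 2 or 24 h replicate 1: the adjusted p was 0.233 without 0 h replicate 2 and 0.266 without 24 h replicate 1 for LAMA4, and 0.126 without 0 h replicate 2 and 0.128 without 24 h replicate 1 for LAMB2. LAMB3, a chain of epithelial laminin outside the list, had 56.4 and 48.5 CPM at 24 h, against 23.5 and 18.1 CPM at 0 h, a log2 fold change of 1.33 ± 0.18 (adjusted p = 0.000978).

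Secreted factors were among the strongest falls. ANGPTL2, an angiopoietin-like protein, had 29.3 and 29.7 CPM at 24 h, against 105 and 100.3 CPM at 0 h, a log2 fold change of -1.80 ± 0.12 (adjusted p = 3.29e-06), and 39.6 and 30.9 CPM at 6 h. CCN3, a matricellular protein of the same family as CCN1, had 45.4 and 51.5 CPM at 24 h, against 147 and 156 CPM at 0 h, a log2 fold change of -1.65 ± 0.12 (adjusted p = 6.91e-06). ENPP2, the lysophosphatidic acid-forming enzyme autotaxin, had 5.15 and 5.34 CPM at 24 h, against 15.4 and 11.2 CPM at 0 h (-1.34 ± 0.17, adjusted p = 0.000472). LGI3, a secreted leucine-rich protein, had 2.25 and 2.62 CPM at 24 h, against 9.903 and 8.43 CPM at 0 h (-1.91 ± 0.24, adjusted p = 0.000472). In each of these 4 genes both 24 h libraries lay far below both 0 h libraries, and all 4 calls held whichever library was left out.

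Regulators of the melanocyte lineage changed modestly. MITF, the master regulator of pigment cells, had 171 and 167 CPM at 24 h, against 248 and 219 CPM at 0 h, a log2 fold change of -0.46 ± 0.10 (adjusted p = 0.0219). Its adjusted p was 0.152 without 0 h replicate 1, 0.141 without 24 h replicate 1 and 0.133 without 24 h replicate 2. ERBB3, the neuregulin receptor, had 501 and 474 CPM at 24 h, against 387 and 367 CPM at 0 h (0.37 ± 0.08, adjusted p = 0.0185, but 0.0616 to 0.168 when each of the 4 libraries was left out in turn). Of 14 melanosome genes 0 rose and 4 fell, beside 2.19% and 1.65% of all genes. ABCB5, a membrane transporter found in melanoma, had 2.73 and 2.62 CPM at 24 h, against 12.95 and 11.3 CPM at 0 h, a log2 fold change of -2.18 ± 0.36 (adjusted p = 0.00347, and 0.062 without 24 h replicate 1 and 0.0513 without 24 h replicate 2). MLPH and RAB27A, 2 partners in melanosome transport along actin, gave -0.52 ± 0.07 (adjusted p = 0.000822) and -0.49 ± 0.08 (adjusted p = 0.00463, and 0.0566 without 0 h replicate 2 and 0.0886 without 24 h replicate 1).

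MLANA gave -0.46 ± 0.10 (adjusted p = 0.0234), lost in every fit without 1 library at 0.065 to 0.272. TYR, the tyrosinase that starts pigment synthesis, had 138 and 149.99 CPM at 24 h, against 144 and 143 CPM at 0 h and a log2 fold change of 0.00 ± 0.09 (adjusted p = 1). Among 18 genes that mark dedifferentiated melanoma 0 rose and 3 fell, the lower ones being THBS1, the matricellular protein thrombospondin 1, with NT5E and CCN1 from above. THBS1 had 96.6 and 107 CPM at 24 h, against 129.7 and 159.97 CPM at 0 h (-0.51 ± 0.10, adjusted p = 0.0118, and 0.147 without 0 h replicate 2 and 0.159 without 24 h replicate 1). AXL, a receptor kinase of that state, had 5.52 and 3.71 CPM at 24 h, against 3.43 and 3.17 CPM at 0 h, and did not pass (0.49 ± 0.19, adjusted p = 0.198). NGFR had 2.01 and 2.05 CPM at 24 h, against 1.59 and 1.297 CPM at 0 h (adjusted p = 0.558). BRAF had 44.7 and 42.7 CPM at 24 h, against 41.8 and 36.5 CPM at 0 h (adjusted p = 0.463).

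Genes of the cell cycle lay below their untreated levels by small amounts that few single tests passed. Of 27 genes of G1/S and DNA replication 7 fell and none rose, and of 24 genes of G2/M and mitosis 3 fell and none rose, beside 1.65% of all genes lower. All 24 mitotic genes had a log2 fold change under 0, with a median of -0.52. With the replicate block 22 of the replication genes and 23 of the mitotic genes were lower, beside 6.04% of all genes. In the fits that left out 1 library, and so held 1 in a group, nearly all of the edgeR calls were lost. DESeq2 called 15 and 11 of the replication and mitotic genes lower and none higher, beside 3.23% of all genes lower. At an unadjusted p under 0.05, 21 and 20 were lower and none higher, beside 8.76% of all genes lower. MCM4, a subunit of the replicative helicase, had 184 and 207 CPM at 24 h, against 251 and 272 CPM at 0 h, a log2 fold change of -0.42 ± 0.08 (adjusted p = 0.00878, and 0.104 without 0 h replicate 2 and 0.149 without 24 h replicate 1). PCNA, the sliding clamp of DNA polymerase, had 128 and 139 CPM at 24 h, against 170.4 and 178 CPM at 0 h (-0.39 ± 0.09, adjusted p = 0.0319).

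AURKB, the kinase of chromosome segregation, had 49.3 and 46.9 CPM at 24 h, against 85.01 and 79.3 CPM at 0 h, a log2 fold change of -0.77 ± 0.18 (adjusted p = 0.0285). PLK1, a mitotic kinase, had 128 and 135 CPM at 24 h, against 221 and 212 CPM at 0 h (-0.72 ± 0.17, adjusted p = 0.0297). CDC20, which activates the anaphase-promoting complex, had 148 and 159 CPM at 24 h, against 227 and 238 CPM at 0 h (-0.60 ± 0.16, adjusted p = 0.0488). The groups did not overlap at these genes, as at all 780 called genes. The calls on PCNA, AURKB, PLK1 and CDC20 were lost whichever library was left out, which left 1 library in its group. Over those fits the log2 fold change ran from -0.45 to -0.32 in PCNA and from -0.82 to -0.72 in AURKB. It ran from -0.76 to -0.68 in PLK1 and from -0.65 to -0.54 in CDC20. Fewer cells in a phase and less RNA per cell cannot be told apart in bulk samples. Of 19 G1 cyclins, CDKs and inhibitors edgeR called CCND3, a D-type cyclin, at 75.4 and 78.1 CPM at 24 h, against 107 and 88.96 CPM at 0 h (-0.35 ± 0.09, adjusted p = 0.0406, and 0.272 without 0 h replicate 1, 0.238 without 24 h replicate 1 and 0.137 without 24 h replicate 2), and no other. The members called lower numbered 4 by DESeq2, 5 with the block, 5 with no filter and 2 with RLE scaling, with none higher. Of 21 p53 targets 1 rose and 2 fell, beside 2.19% and 1.65% of all genes. The higher one was TNFRSF10B, a death receptor for TRAIL, with 439.8 and 429 CPM at 24 h, against 334 and 329 CPM at 0 h (0.39 ± 0.06, adjusted p = 0.00301).

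Early response genes were mixed. Of 23 tested, 2 rose and 2 fell, beside 2.19% and 1.65% of all genes. With the block 3 rose and 7 fell, beside 6.04% each way. EGR1, an early growth response factor, had 145 and 112 CPM at 24 h, against 76.4 and 62.2 CPM at 0 h, a log2 fold change of 0.89 ± 0.18 (adjusted p = 0.0153, and 0.162 without 0 h replicate 2 and 0.196 without 24 h replicate 1). NR4A3, an orphan nuclear receptor, had 2.9995 and 4.88 CPM at 24 h, against 11.3 and 8.47 CPM at 0 h (-1.33 ± 0.23, adjusted p = 0.00449, and 0.056 without 0 h replicate 1 and 0.0861 without 24 h replicate 1). FOSL1, an AP-1 subunit, had 134 and 134 CPM at 24 h, against 175 and 185 CPM at 0 h (-0.43 ± 0.08, adjusted p = 0.0099, and 0.1 without 0 h replicate 2, 0.13 without 24 h replicate 1 and 0.077 without 24 h replicate 2). The level of FOSL1 at 24 h was also below that at 6 h (-0.55 ± 0.08, adjusted p = 0.00722, and 0.0819 without 6 h replicate 2, 0.149 without 24 h replicate 1 and 0.0799 without 24 h replicate 2).

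Metabolic and signalling lists are to be read beside 2.19% of all genes higher and 1.65% lower, or 6.04% each way with the block. At an unadjusted p under 0.05, 9.34% of all genes were higher and 8.76% lower. By that rule 9 of 20 tRNA synthetases were higher and 5 lower. Fatty acid genes gave 5 and 0 of 15, MAPK output 6 and 0 of 16 and glycolysis 4 and 0 of 28. NF-kB targets gave 1 and 2 of 19, TGF-beta genes 3 and 1 of 23 and clock genes 2 and 1 of 17. Of 28 glycolysis and hypoxia genes 2 rose, or 9 with the block: P4HA1, a collagen prolyl hydroxylase, had 223 and 206 CPM at 24 h, against 137 and 131 CPM at 0 h (0.68 ± 0.07, adjusted p = 6.98e-05). SLC2A1, the glucose transporter GLUT1, had 345 and 319 CPM at 24 h, against 226 and 196 CPM at 0 h (0.65 ± 0.14, adjusted p = 0.0187, and 0.176 without 0 h replicate 2, 0.17 without 24 h replicate 1 and 0.0669 without 24 h replicate 2). Of 20 cytosolic tRNA synthetases 2 rose, or 7 with 3 lower under the block, led by MARS1 at 0.41 ± 0.10 (adjusted p = 0.0305, and 0.243 without 0 h replicate 2, 0.208 without 24 h replicate 1 and 0.109 without 24 h replicate 2). FADS2, a fatty acid desaturase, gave 0.55 ± 0.12 (adjusted p = 0.0178, and 0.173 without 0 h replicate 2, 0.109 without 24 h replicate 1 and 0.0814 without 24 h replicate 2), 1 of 2 higher of 15 fatty acid genes. The MAPK output list gave 1 higher gene of 16, IER3 at 0.36 ± 0.09 (adjusted p = 0.0421, and 0.313 without 0 h replicate 2, 0.297 without 24 h replicate 1 and 0.0839 without 24 h replicate 2), and the NF-kB list 1 of 19, the cytokine LIF at 0.47 ± 0.11 (adjusted p = 0.0292, and 0.242 without 0 h replicate 2 and 0.315 without 24 h replicate 1). In the TGF-beta pathway ENG, a co-receptor, gave -0.52 ± 0.13 (adjusted p = 0.0376, but 0.0566 to 0.227 when each of the 4 libraries was left out in turn), while ACVR1, a type I receptor, rose to 109 and 113 CPM at 24 h, against 78.5 and 77.1 CPM at 0 h (0.51 ± 0.07, adjusted p = 0.00108). PER1, a clock gene, gave 0.99 ± 0.23 (adjusted p = 0.0271, but 0.0775 to 0.196 when each of the 4 libraries was left out in turn).

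No member was called among 24 genes of cholesterol synthesis, 16 of the BCL2 family, 23 of ribosome biogenesis, 30 proteasome subunits, 21 interferon-stimulated genes, 5 aryl hydrocarbon receptor targets or 17 FOXO and autophagy genes by edgeR. With the replicate block, 6 cholesterol genes and 3 FOXO genes were higher, 10 ribosome biogenesis genes and 2 BCL2 family genes lower, and proteasome subunits gave 1 higher and 2 lower and interferon-stimulated genes 1 and 1. DESeq2 called 2 cholesterol genes higher and 2 BCL2 family genes, 3 ribosome biogenesis genes and 1 proteasome subunit lower. At an unadjusted p under 0.05 there were 7 higher cholesterol genes, 2 higher FOXO genes, 3 lower BCL2 family genes, 12 lower ribosome biogenesis genes and, among proteasome subunits, 1 higher and 4 lower, with 1 higher and 2 lower interferon-stimulated genes. These counts stand beside 9.34% higher and 8.76% lower over all genes. Of 40 complex I subunits edgeR called 1 lower, beside 1.65% of all genes: NDUFB9 at -0.32 ± 0.08 (adjusted p = 0.0427). NDUFB9 lost the call whichever of the 4 libraries was left out, with log2 fold changes of -0.41 to -0.23. The block called 1 subunit higher and 7 lower, and DESeq2 1 and 4. At an unadjusted p under 0.05, 2 were higher and 13 lower, and 31 of the 40 had a log2 fold change under 0. Over all genes the block called 6.04% each way and DESeq2 3.13% higher and 3.23% lower. Markers of epithelial, endothelial, blood and fibroblast cells gave no call in edgeR without the block or in DESeq2. In the fibroblast list PDGFRA was higher with the block and at an unadjusted p under 0.05 (0.58 ± 0.16, adjusted p = 0.068, or 0.0275 with the block). Summed over the 6 fibroblast markers, expression came to 32.5 and 28.3 CPM at 24 h, against 32.7 and 32.3 CPM at 0 h. The 7 epithelial markers summed to 8.70 and 7.36 CPM at 24 h, against 11.7 and 10.6 CPM at 0 h, nearly all of it ESRP1, with CDH1 and KRT5 at 0 reads. The 5 endothelial markers summed to 4.37 and 4.93 CPM at 24 h, against 3.34 and 3.82 CPM at 0 h, with PECAM1 and CDH5 at 0 reads. The 6 blood markers summed to 0.576 and 0.916 CPM at 24 h, against 1.31 and 1.12 CPM at 0 h, with CD3E and HBB at 0 reads.

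The remaining genes with the largest changes belonged to none of these lists. HSPA13, an HSP70-like chaperone of microsomes, had 167 and 182 CPM at 24 h, against 69.7 and 67.8 CPM at 0 h, a log2 fold change of 1.34 ± 0.13 (adjusted p = 7.11e-05). TTC17, a tetratricopeptide protein, had 126 and 121 CPM at 24 h, against 46.99 and 49.04 CPM at 0 h (1.36 ± 0.09, adjusted p = 4.64e-06). SMIM14, a small membrane protein, had 18.4 and 19.4 CPM at 24 h, against 7.51 and 6.02 CPM at 0 h (1.48 ± 0.12, adjusted p = 9.51e-06). These 3 passed whichever library was left out. METTL7B, a methyltransferase of ER and lipid droplets, had 56.99 and 48.5 CPM at 24 h, against 23.6 and 15.8 CPM at 0 h (1.42 ± 0.23, adjusted p = 0.00288, and 0.052 without 0 h replicate 2). VASN, a membrane protein that binds TGF-beta, had 14.8 and 11.3 CPM at 24 h, against 6.51 and 4.83 CPM at 0 h (1.20 ± 0.19, adjusted p = 0.00315, and 0.0566 without 0 h replicate 2 and 0.0626 without 24 h replicate 1). ADM2, a peptide hormone precursor, gave 1.68 ± 0.36 (adjusted p = 0.0195, and 0.185 without 0 h replicate 2 and 0.196 without 24 h replicate 1).

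MGAM2 and PCDH1 rose by 1.47 ± 0.33 and 1.21 ± 0.28 (adjusted p = 0.0226 and 0.0302), but neither passed when a library was left out, at 0.102 to 0.144 and 0.0821 to 0.22; MGAM2 resembles its neighbour MGAM, so its reads are uncertain. Among the lower genes were GALNT3, an enzyme that starts O-linked glycans, with 3.78 and 4.56 CPM at 24 h, against 11.8 and 9.76 CPM at 0 h (-1.37 ± 0.21, adjusted p = 0.00228, and 0.0579 without 24 h replicate 1), and TRIM48, with 9.99 and 10.6 CPM at 24 h, against 25.7 and 25.9 CPM at 0 h (-1.33 ± 0.17, adjusted p = 0.000941). TRIM63, a muscle-type ubiquitin ligase, gave -1.39 ± 0.32 (adjusted p = 0.0258, and 0.124 without 0 h replicate 1, 0.11 without 0 h replicate 2 and 0.278 without 24 h replicate 1). PCDHA7, a clustered protocadherin, had 6.48 and 6.75 CPM at 24 h, against 19.7 and 18.6 CPM at 0 h (-1.53 ± 0.18, adjusted p = 0.000301); the alpha protocadherins share exons, so the assignment to this member is uncertain.

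Set against 6 h, 70 genes were higher and 79 lower at 24 h, which is 0.345% and 0.39% of the genes tested, and 81 of the 780 genes called against 0 h were among these 149. With the replicate block 475 were higher and 550 lower. Leaving out 24 h replicate 1 left 2 and 1, 24 h replicate 2 left 12 and 10, 6 h replicate 1 left 10 and 31, and 6 h replicate 2 left 20 and 22. SLC26A2, a sulfate transporter, had 243 and 266 CPM at 0 h, 245 and 226 CPM at 6 h and 377 and 412 CPM at 24 h (0.75 ± 0.09 against 6 h, adjusted p = 0.00275) and passed in all 4 of these fits. ALDH1L2, a mitochondrial folate enzyme of the ATF4 list, had 117 and 97.6 CPM at 24 h, against 63.4 and 57.2 CPM at 6 h (0.83 ± 0.16, adjusted p = 0.0351, but 0.0895 to 0.328 when each of the 4 libraries was left out in turn).

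PDE1C, a cyclic nucleotide phosphodiesterase, had 37.1 and 43.8 CPM at 24 h, against 24.1 and 21.9 CPM at 6 h (0.81 ± 0.12, adjusted p = 0.00707, and 0.0819 without 6 h replicate 2, 0.0557 without 24 h replicate 1 and 0.0816 without 24 h replicate 2). MT-ND4L, a mitochondrially encoded complex I subunit whose reads overlap those of its neighbour, gave 0.77 ± 0.13 (adjusted p = 0.0193, and 0.181 without 6 h replicate 1, 0.0549 without 6 h replicate 2 and 0.237 without 24 h replicate 1), and MGAM2 2.27 ± 0.34 (adjusted p = 0.00755, but 0.0504 to 0.106 when each of the 4 libraries was left out in turn). The largest falls since 6 h were in HSPA1A, then HSPA1B at -2.78 ± 0.40 (adjusted p = 0.00628, and 0.145 without 24 h replicate 1 and 0.0738 without 24 h replicate 2), HMOX1 at -2.74 ± 0.53 (adjusted p = 0.0318, and 0.173 without 6 h replicate 2, 0.344 without 24 h replicate 1 and 0.154 without 24 h replicate 2), MT1X, and MT1G at -1.96 ± 0.23 (adjusted p = 0.00275, and 0.0649 without 24 h replicate 1). For HMOX1 the log2 fold change ran from -3.51 to -0.94 over these fits, and 6 h replicate 2 was the high library. SSR1 had 552 and 533 CPM at 24 h, against 354 and 374 CPM at 6 h (0.58 ± 0.07, adjusted p = 0.00275), and lost this call at 0.0588 without 24 h replicate 1.

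The 24 h change in UACC62P differed from that in UACC62R at 114 genes, 65 with a more positive and 49 with a more negative change in UACC62P (0.321% and 0.242%), and 30 of these were among the 780. With the replicate block the counts were 464 and 358. The counts also moved in the fits that left out 1 library. Those fits hold 1 library in a group, so they cannot tell how far the 114 calls rest on single libraries. MT2A differed by 1.30 ± 0.14 (adjusted p = 0.00239), from 2.38 ± 0.10 in UACC62P and 1.08 ± 0.10 in UACC62R, where it had 2085 and 1920 CPM at 24 h, against 954 and 942 CPM at 0 h. CCN3 differed by -1.19 ± 0.16 (adjusted p = 0.0086, and 0.0631 without UACC62P 24 h replicate 1), from -1.65 ± 0.12 in UACC62P and -0.45 ± 0.11 in UACC62R. Of the 33 ER translocation genes 0 differed between the lines, beside 0.562% of all genes, a share at which a list this short can hold none. The count therefore does not show that the lines responded alike. For SSR1 the difference was -0.18 ± 0.09 (adjusted p = 0.522), from 0.97 ± 0.07 in UACC62P and 1.15 ± 0.07 in UACC62R. Of the 27 genes of DNA replication 3 differed, beside 0.562% of all genes. All 27 had a more negative change in UACC62R, while the median difference over all genes was 0.02. MCM6, another helicase subunit, gave 0.84 ± 0.11 (adjusted p = 0.00614), from -0.12 ± 0.08 in UACC62P and -0.96 ± 0.08 in UACC62R.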

How the data were processed

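The deposited files hold raw counts of reads per Ensembl gene, made by the authors and not normalised. Per the submitters' processing notes, the build was hg19 and the tools were HTSeq 0.6.1, HISAT2 2.1.0, Trimmomatic 0.33, FastQC 0.11.5 and bcl2fastq 2.19.0. Per the labels, libraries were stranded TruSeq mRNA and reads single 50 bp. Whether counting used strand is not stated in the sources used here, so antisense and overlapping genes are uncertain. Each file held 63677 gene IDs, of which 52181 were paired with a symbol, and 5 summary lines left out of library sizes. In the 4 libraries compared, 11.9 to 17.8% of reads had not aligned, 19.4 to 21.0% had aligned more than once, 6.62 to 6.78% lay in more than one gene and 3.43 to 3.97% in none. Reads without molecular identifiers are not independent molecules, so depth limits counting error only.

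Counts were fitted with the quasi-likelihood F test of edgeR 4.0.16 (R 4.3.3, limma 3.58.1) after TMM scaling and filterByExpr, in 1 model with a coefficient per group over 15 libraries, with Benjamini-Hochberg adjustment over the 20280 genes tested and a threshold of 0.05. Standard errors were taken as the absolute log2 fold change over the root of F. The contrasts were 24 h against 0 h, 24 h against 6 h, and the difference of the 24 h change between the lines. Alternatives were RLE or no scaling, no filter, DESeq2 1.42.0, all 16 libraries, the UACC62P libraries alone, only the groups compared, the replicate number as a block, and each library left out in turn. Same-numbered libraries deviated together in all 21 pairs of groups (r = 0.174 to 0.718 over 8273 genes, and 0.312 to 0.546 within UACC62P). The replicate numbers come from the sample titles, but no label says that same-numbered libraries belong together. The tests were checked on simulated counts drawn independently for each library, so that check left out such shared deviations.

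Genes were named by rule: the 15 called genes each way with the largest change, no overlap and a mean log2 CPM of 2 or more, 5 each way in the other contrasts, up to 4 called members of each of 42 lists, and 16 genes given always. The mean was taken over the libraries compared, settled after the values were seen. Genes outside the rule are named as members of a list or beside a count. Members and lists were chosen with earlier results of these data known. Motifs were searched on both strands of the first RefSeq window of each of 27305 genes (GRCh38.p14), in the 250 bases before the start.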

Additional observations from a re-analysis of the deposited data

Results flagged for a closer look

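At 19 named genes the 24 h change in UACC62P differed from that in UACC62R in the test of the difference itself, at an adjusted p under 0.05 by edgeR. Differences are UACC62P change minus UACC62R change on the log2 scale. The change was more positive in UACC62P at MT2A and SLC7A11: MT2A differed by 1.30 ± 0.14 (adjusted p = 0.00239) and SLC7A11, the cystine importer, by 0.95 ± 0.17 (adjusted p = 0.0212), from 1.51 ± 0.12 in UACC62P and 0.56 ± 0.12 in UACC62R. SLC26A2, the sulfate transporter, differed by 0.68 ± 0.12, from 0.63 ± 0.09 in UACC62P and -0.05 ± 0.09 in UACC62R. At ACTB, CCN1, CCN2 and FOSL1 the change was more negative in UACC62R, and the difference was 0.63 ± 0.10 in ACTB, 1.19 ± 0.20 in CCN1, 1.20 ± 0.18 in CCN2 and 0.61 ± 0.11 in FOSL1, an AP-1 subunit with -0.43 ± 0.08 in UACC62P and -1.04 ± 0.08 in UACC62R.

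In 3 genes a fall was called in UACC62R but not in UACC62P, and the difference passed in all 8 fits that left out 1 library. CRIM1, a membrane protein that binds BMPs, differed by 1.51 ± 0.16, from -0.12 ± 0.12 in UACC62P and -1.62 ± 0.12 in UACC62R, with 86.5 and 72.8 CPM at 24 h, against 94.3 and 78.3 CPM at 0 h in UACC62P. CDCA7, a cell division-associated chromatin protein, differed by 1.62 ± 0.19, from 0.06 ± 0.12 in UACC62P and -1.56 ± 0.14 in UACC62R. MAP3K14, the kinase NIK of noncanonical NF-kB signalling, differed by 1.58 ± 0.19, from 0.47 ± 0.15 in UACC62P and -1.11 ± 0.13 in UACC62R.

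KRT80, a keratin, differed by 2.51 ± 0.42, and KLF7, a Kruppel-like factor, by 2.07 ± 0.36. Both were under 1 CPM in every UACC62P library of 24 h and 0 h, so their UACC62P changes of -0.21 ± 0.37 and 1.42 ± 0.33 rest on few reads; the UACC62R changes were -2.73 ± 0.12 and -0.64 ± 0.14.

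More negative changes in UACC62P were found in CCN3 (-1.19 ± 0.16) and NR4A3 (-1.75 ± 0.34), from -1.33 ± 0.23 in UACC62P and 0.42 ± 0.26 in UACC62R. BMF, a BH3-only member of the BCL2 family, differed by -1.68 ± 0.32, from -0.81 ± 0.23 in UACC62P and 0.87 ± 0.23 in UACC62R. SLC7A8, a neutral amino acid exchanger, differed by -1.46 ± 0.24, from -0.41 ± 0.16 in UACC62P and 1.05 ± 0.17 in UACC62R. CYP1A1, the classical aryl hydrocarbon receptor target, differed by -1.43 ± 0.24, from 0.01 ± 0.18 in UACC62P and 1.44 ± 0.16 in UACC62R. PREX1, a Rac exchange factor, differed by -1.25 ± 0.21, from 0.23 ± 0.14 in UACC62P and 1.48 ± 0.16 in UACC62R, and RAB5IF by -1.33 ± 0.24, from -0.21 ± 0.17 in UACC62P and 1.12 ± 0.17 in UACC62R. Over the 8 fits the adjusted p ran over 0.0414 to 0.186 for NR4A3, 0.0541 to 0.16 for BMF, 0.0151 to 0.0922 for RAB5IF, 0.00804 to 0.091 for SLC7A8, 0.00442 to 0.101 for CYP1A1 and 0.0203 to 0.0961 for PREX1. It ran over 0.0278 to 0.101 for SLC7A11, 0.0335 to 0.132 for SLC26A2, 0.0375 to 0.148 for FOSL1, 0.0256 to 0.399 for KRT80, 0.0192 to 0.124 for KLF7, 0.0133 to 0.0631 for CCN3 and 0.00382 to 0.0169 for MT2A. None of the 19 differences was called when the library at odds with its label was kept.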

How the results depend on the processing

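Under the scaling alternatives (RLE and library size alone) the counts of called genes over all genes tested stayed within 1.5 times the reported ones. Of the counts of list members, 8 moved further with library size alone, among them G1/S and DNA replication, where 3 rather than 7 were lower, and glycosaminoglycan synthesis, where 4 rather than 2 were higher, and 1 moved with RLE. No named gene that was called changed sign under any alternative run. For 24 h against 0 h, no filter gave 781 higher and 737 lower genes, DESeq2 655 lower, the 7 UACC62P libraries alone 652 lower, only the groups compared 613 lower, and all 16 libraries 20 higher and 9 lower. Leaving out 1 library gave 128 to 270 higher and 81 to 131 lower genes. For 24 h against 6 h, the counts were 293 higher and 429 lower without the filter, 195 and 228 by DESeq2, 135 and 222 in the 7 libraries, 142 and 233 in only the groups compared, and 2 to 20 and 1 to 31 without 1 library. The difference between the lines gave 310 and 264 without the filter, 232 and 167 by DESeq2, 26 and 12 in only the groups compared, and 10 to 87 and 1 to 50 without 1 library. With all 16 libraries edgeR called 0 genes for 24 h against 6 h, where 856 had an unadjusted p under 0.05, and 0 for the difference between the lines, where 631 did; DESeq2 was not run on all 16. The cause was not tested where another tool or fewer samples moved a count.

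The replicate block pairs libraries by the replicate number in their titles. With it, the counts were 1224 and 1224 for 24 h against 0 h, 475 and 550 for 24 h against 6 h, and 464 and 358 for the difference between the lines. It moved 8 named genes past the threshold at 24 h against 0 h and removed none. Of the 97 named genes called there, 46 passed whichever library was left out, 21 passed in none of the 4 fits, and 15 passed with all 16 libraries.

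Each group has 2 libraries, no vehicle library was used here, and time in culture was not matched by untreated cells of 24 h. Compound, vehicle and handling therefore cannot be told apart. Genes under about 1 CPM rest on few reads, and 22 of the 780 calls lie there.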

Other observations

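Grouped by symbol stem, which was chosen after the values were seen and carries no test, the genes at 1 CPM or more were compared with all genes at that level, of which 3.3% were higher and 2.46% lower at 24 h. Of 26 SEC genes, many of them coat and channel subunits, 9 were higher and 0 lower. Of 15 ALG genes, which build the lipid-linked sugar, 5 were higher and 0 lower. Of 220 SLC genes, the solute carriers, 31 were higher and 6 lower, and of 148 TMEM genes, named for a transmembrane segment, 15 were higher and 0 lower. Of 29 MRPS genes, subunits of the small mitochondrial ribosome, 0 were higher and 4 lower, and of 406 ZNF genes 2 were higher and 2 lower.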
